A study of Homo sapiens with 6 samples.

Results

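The genes described here are the cyclins, cyclin-dependent kinases (CDKs) and inhibitors that control passage through the G1 phase of the cell cycle, with the retinoblastoma gene that they act on. They were taken by symbol: CCND1, CCND3, CCNE1, CCNE2, CDK2, CDK4, CDK6, CDKN1A, CDKN1B and RB1, which make 10 of the 17211 genes in the deposited table. All 10 were listed there and all 10 passed the filter on low values. The samples were CAOV2 cells, a human ovarian cancer line that the labels also call primary cancer cells. In 3 samples the cells had been given a Dharmacon siRNA against TAZ (siTAZ), for which the labels cite a single catalogue item, and in 3 samples AllStars Negative Control siRNA, a non-targeting control (siNT). Both groups were transfected for 2 days with Lipofectamine RNAiMAX and collected on day 3, and poly(A) RNA was sequenced. The labels call the samples biological replicates and do not say whether they were separate thaws, so the p-values below describe variation among these 6 samples only, part of which may be technical.

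In textbook terms, D-type cyclins bind CDK4 and CDK6 and begin to phosphorylate the retinoblastoma protein in G1. E-type cyclins then bind CDK2, the retinoblastoma protein releases E2F factors, and E2F factors switch on genes of DNA synthesis, the E-type cyclins among them. The proteins p21 (CDKN1A) and p27 (CDKN1B) bind cyclin and CDK complexes and restrain CDK2. TAZ, encoded by WWTR1, is a coactivator of the Hippo pathway that works through TEAD factors, and silencing it asks which transcripts change when it is lowered. With a single siRNA item against TAZ, an effect of TAZ loss and another effect of the reagent cannot be told apart.

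Libraries held 28458503 to 34488196 reads in genes in siTAZ and 25478595 to 28928432 in siNT. Levels are deposited values, which are reads divided by the size factor of the library, so 1 unit is about 1 read. WWTR1 itself had deposited values of 242, 277 and 280 in siTAZ, against 4359, 4217 and 4258 in siNT. Its relative YAP1 averaged 4875 ± 185 in siTAZ and 5992 ± 213 in siNT (SD, n = 3 each). YAP1 was called lower (log2 fold change -0.30, limma adjusted p = 4.7e-05). Replicate 1 of each group differed more from the other libraries of its group than those did from each other: in a chi-square comparison of their reads, the statistic per degree of freedom was 7.62 to 8.67 for pairs with siTAZ replicate 1, 5.53 to 6.73 for pairs with siNT replicate 1, and 2.76 to 2.91 for the remaining pairs. Of 9 markers of ovarian carcinoma epithelium, 7 were listed, with a summed deposited value of 68777 to 75176 in siTAZ and 81981 to 88859 in siNT. Its members moved in different directions. KRT7 averaged 8604 in siTAZ and 22847 in siNT and KRT18 22365 in siTAZ and 27495 in siNT, while KRT8 averaged 39346 in siTAZ and 35206 in siNT and EPCAM 1361 in siTAZ and 501 in siNT. PAX8, MUC16 and MSLN were scarce, with means of 18.2, 7.98 and 7.64 in siTAZ and 28.8, 11.9 and 2.63 in siNT, and WT1 and SOX17 were not listed. Of 6 fibroblast markers 5 were listed, with sums of 5271 to 6064 in siTAZ and 4592 to 5331 in siNT. LUM, the largest part, averaged 3885 in siTAZ and 3797 in siNT, COL3A1 1408 in siTAZ and 661 in siNT, COL1A1 453 in siTAZ and 425 in siNT, PDGFRB 34.2 in siTAZ and 10.1 in siNT, and COL1A2 1.3 in siTAZ and 12.6 in siNT. Of 6 leukocyte markers 2 were listed, with sums of 159 to 172 in siTAZ and 114 to 126 in siNT, and PTPRC was not among them. None of 5 endothelial markers was listed. The part of these markers in the results below was not tested.

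Most of the genes that drive G1 were lower after TAZ silencing. Cyclins CCND1, CCNE1 and CCNE2 and the kinases CDK2, CDK4 and CDK6 fell by 21.6% to 37.2%, while cyclin D3 (CCND3) rose by 31.2%. The inhibitor gene CDKN1B rose slightly, a call that was lost in 5 of 16 alternative settings. CDKN1A and RB1 did not pass the test, though RB1 was called higher in 4 of the 16 settings. In all, 6 members were called lower and 2 higher in limma at an adjusted p under 0.05, and 2 were not called. Over all 17204 genes tested, 55.8% were called, 27.5% lower and 28.3% higher. The share of members called lower, 6 of 10, stands beside 27.5% for all genes and 35.5% for the 8844 genes whose mean value lay in the range of the members, 419 to 25221. Called either way were 8 of 10 members, beside 67.2% of those 8844 genes, of which 31.7% were higher. The members' median log2 fold change was -0.36, against 0.00 for all genes, and their median absolute log2 fold change was 0.38, against 0.31. The members were chosen with earlier results of these data known, so these differences from all genes are no independent support. In bulk RNA, a lower level in every cell and fewer cells in the phase that expresses a gene cannot be told apart.

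**Figure D1:**
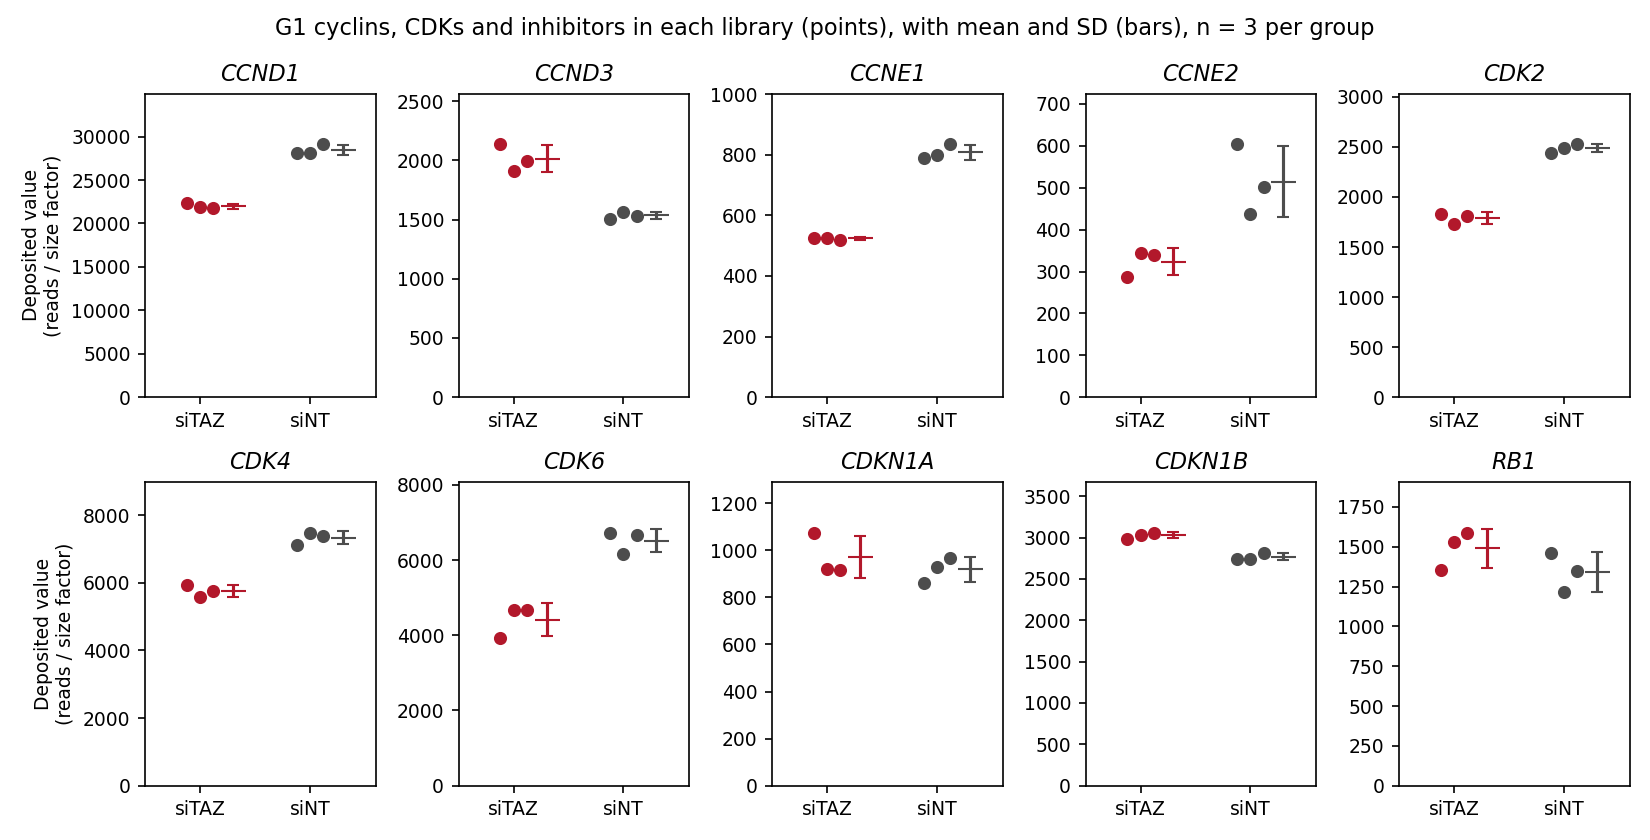
Deposited value (reads divided by the size factor, linear axis from 0) of each gene in the 3 siTAZ and 3 siNT libraries. Points are libraries and bars are means with SD. The groups did not overlap for 8 of the 10 genes, beside 61.4% of all 17204 genes tested, and they overlapped for CDKN1A and RB1.

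The promoter windows of CCNE1 and CDK4, which were lower, and of CCND3, which was higher, are shown so that the letters can be compared between genes that moved in opposite directions. They are the 250 bases before the annotated start in RefSeq, build GRCh38.p14, written 5′ to 3′ on the strand of the gene. Capitals mark every match, on either strand, to GGGCGG (the Sp1 core) or GGAATG (the TEAD core).
CCNE1, chr19:29811741-29811990, plus strand: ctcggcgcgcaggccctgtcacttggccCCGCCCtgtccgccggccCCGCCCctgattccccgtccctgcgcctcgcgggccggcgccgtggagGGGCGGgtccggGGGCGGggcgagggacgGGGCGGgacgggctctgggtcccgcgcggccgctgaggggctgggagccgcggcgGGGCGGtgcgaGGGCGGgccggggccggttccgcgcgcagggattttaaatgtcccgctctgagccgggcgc
CDK4, chr12:57752311-57752560, minus strand: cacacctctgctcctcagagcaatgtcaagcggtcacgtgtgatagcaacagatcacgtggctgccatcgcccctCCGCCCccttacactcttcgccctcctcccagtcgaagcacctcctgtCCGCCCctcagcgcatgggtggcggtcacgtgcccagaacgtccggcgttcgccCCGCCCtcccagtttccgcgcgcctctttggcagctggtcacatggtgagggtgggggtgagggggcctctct
CCND3, chr6:41941809-41942058, minus strand: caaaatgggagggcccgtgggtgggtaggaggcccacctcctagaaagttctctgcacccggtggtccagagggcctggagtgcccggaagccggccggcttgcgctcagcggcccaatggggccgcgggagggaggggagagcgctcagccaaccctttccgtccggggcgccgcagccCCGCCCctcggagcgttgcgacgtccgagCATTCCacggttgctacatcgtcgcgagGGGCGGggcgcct

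RefSeq windows were matched for 7 of the 10 members, in 10 windows, since CCND3 has 3 starts and CDK6 has 2. CCND1, CCNE2 and CDK2 had no entry. GGGCGG was found 7 times in the CCNE1 window, 3 times in the CDK4 window and 2 times in the CCND3 window shown, and 5 and 0 times in the other CCND3 windows. The CCND3 window shown was chosen for its GGAATG match. GGGCGG was in 7 of the 10 windows of members and occurs in 42.6% of all 35116 RefSeq windows of this length. GGAATG was found in 1 of the 10 windows, the CCND3 window shown, where it starts 41 bases before the annotated start on the opposite strand, and 11.9% of all windows hold it. Letters of the E2F type, TTTNNCGC on either strand, were in 0 of the 10 windows and in 5.92% of all windows. TGANTCA, a looser form of the AP-1 core with any middle base, was in 1 window and in 6.57% of all windows. That 1 window was the only window matched for RB1. The match there read TGAATCA, with A in the middle where the AP-1 core has C or G. Whether that window, or any other here, lies at the main start of its gene was not checked. A match is a description of letters, and the absence of one says only that these letters are not in this stretch.

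The D-type cyclins are the growth factor sensors of G1, and the 2 that were listed moved in opposite directions. CCND1 (ENSG00000110092), the most abundant member, had deposited values of 22307, 21845 and 21764 in siTAZ, against 28111, 28164 and 29134 in siNT. Every siTAZ library lay below every siNT library, and the gap was several times the spread within either group. The level was 22.8% lower, with a log2 fold change of -0.37 (SE 0.04, 95% interval -0.46 to -0.28, limma adjusted p = 1.2e-06). CCND3 (ENSG00000112576), a related cyclin that binds the same kinases, had 2137, 1912 and 1992 in siTAZ and 1509, 1565 and 1531 in siNT. Here all siTAZ libraries were the higher ones, and the rise was 31.2% (log2 fold change 0.39, SE 0.05, 95% interval 0.27 to 0.51, limma adjusted p = 1.1e-05). CCND2, the third D-type cyclin gene, was not listed in the deposited table.

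Within each library, the log2 ratio of CCND1 to CCND3 averaged 3.45 ± 0.07 in siTAZ and 4.21 ± 0.04 in siNT (SD, n = 3 each), a difference of -0.76. The 2 groups did not overlap. An exact two-sided permutation test over the 6 samples gave p = 0.10, the smallest this design allows, and 0.40 after adjustment over the 4 pairs of related genes compared. Counted per length of annotated exons, CCND1 still made up 92.9% ± 0.3 of the summed CCND1 and CCND3 transcripts in siTAZ, against 95.7% ± 0.1 in siNT. CCND1 therefore outnumbered CCND3 in all 6 libraries.

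The E-type cyclins act later in G1 and are themselves E2F targets. CCNE1 (ENSG00000105173) had deposited values of 525, 527 and 519 in siTAZ, against 788, 800 and 835 in siNT. The siTAZ libraries differed from each other by less than 2% of their mean, and all lay far below the siNT libraries. The level was 35.2% lower (log2 fold change -0.62, SE 0.06, 95% interval -0.76 to -0.49, limma adjusted p = 2.5e-07). CCNE2 (ENSG00000175305) was the scarcest and most variable member, with 286, 345 and 339 in siTAZ and 604, 437 and 503 in siNT. The groups still did not overlap, although the siNT libraries spread widely and replicate 1 was the lowest in siTAZ and the highest in siNT. It was 37.2% lower (log2 fold change -0.66, SE 0.11, 95% interval -0.89 to -0.44, limma adjusted p = 5.0e-05), and -0.45 without replicate 1 of both groups (limma adjusted p = 9.0e-05).

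The log2 ratio of CCNE1 to CCNE2 averaged 0.70 ± 0.15 in siTAZ and 0.66 ± 0.25 in siNT (SD, n = 3 each). It differed by 0.04 and the groups overlapped (exact permutation p = 0.90, two-sided; 0.90 adjusted over the 4 pairs). The exons of CCNE2 overlap those of INTS8 on the opposite strand over 1629 bases in GENCODE, and whether the reads were counted by strand is not stated in the labels. Without strand, reads from such a stretch cannot be told apart. INTS8, a subunit of the Integrator complex, averaged 4618 ± 234 in siTAZ and 4401 ± 88.4 in siNT and was not called (log2 fold change 0.07, limma adjusted p = 0.25).

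All 3 kinases fell. CDK4 (ENSG00000135446), a partner of the D-type cyclins, had 5937, 5573 and 5746 in siTAZ, against 7129, 7484 and 7393 in siNT. No siTAZ library reached the lowest siNT library, and the level was 21.6% lower (log2 fold change -0.35, SE 0.05, 95% interval -0.45 to -0.26, limma adjusted p = 4.6e-06). CDK6 (ENSG00000105810), the other kinase of D-type cyclins, had 3914, 4670 and 4665 in siTAZ and 6730, 6163 and 6666 in siNT. Replicate 1 was the lowest library in siTAZ and the highest in siNT, and the groups were well apart with or without it. The fall was 32.3% (log2 fold change -0.57, SE 0.06, 95% interval -0.70 to -0.43, limma adjusted p = 8.1e-07). CDK2 (ENSG00000123374), the partner of the E-type cyclins, had 1833, 1727 and 1811 in siTAZ and 2444, 2492 and 2528 in siNT. Both groups were tight, and the siTAZ level was 28.04% lower (log2 fold change -0.47, SE 0.05, 95% interval -0.58 to -0.37, limma adjusted p = 3.8e-07).

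The log2 ratio of CDK4 to CDK6 averaged 0.39 ± 0.19 in siTAZ and 0.17 ± 0.10 in siNT, with overlapping groups (difference 0.21, exact two-sided permutation p = 0.20, 0.40 adjusted over the 4 pairs, n = 3 each). With 3 samples against 3 this test cannot go below 0.10, so whether the 2 kinases fell by different amounts is not settled by it. CDK4 shares 1369 bases of exon with TSPAN31, which lies on the opposite strand. TSPAN31, a tetraspanin gene, moved the other way, with 1128 ± 38.6 in siTAZ and 910 ± 7.64 in siNT (log2 fold change 0.31, limma adjusted p = 0.00018). CCND1 shares 497 bases of exon with LTO1, which was called lower, as CCND1 was. LTO1 averaged 831 ± 29.04 in siTAZ and 930 ± 28.7 in siNT (log2 fold change -0.16, limma adjusted p = 0.029).

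The inhibitors showed small differences. CDKN1B (ENSG00000111276), which encodes p27, had 2989, 3030 and 3061 in siTAZ, against 2739, 2746 and 2816 in siNT. The groups did not overlap, but the gap was narrow, and the level was 9.39% higher (log2 fold change 0.13, SE 0.05, 95% interval 0.03 to 0.23, limma adjusted p = 0.024). It was no longer called without siTAZ replicate 2 (0.076), siTAZ replicate 3 (0.085), siNT replicate 1 (0.052) or siNT replicate 2 (0.071), and the adjusted p ran from 0.0025 to 0.12 over 16 alternatives. CDKN1A (ENSG00000124762), which encodes p21 and is a widely used readout of p53, had 1075, 922 and 919 in siTAZ and 862, 929 and 967 in siNT. Its groups overlapped, and only siTAZ replicate 1 stood above all siNT libraries. CDKN1A did not pass (log2 fold change 0.08, SE 0.07, 95% interval -0.07 to 0.23, limma adjusted p = 0.36), and its log2 fold change was -0.04 without replicate 1 of both groups. The log2 ratio of CDKN1A to CDKN1B averaged -1.64 ± 0.15 in siTAZ and -1.59 ± 0.07 in siNT, with overlapping groups (exact two-sided permutation p = 0.70, 0.90 adjusted over the 4 pairs, n = 3 each).

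RB1 (ENSG00000139687), the pocket protein that the G1 kinases phosphorylate, had 1355, 1530 and 1589 in siTAZ, against 1462, 1214 and 1349 in siNT. The groups overlapped because siTAZ replicate 1 was lower than siNT replicate 1. RB1 did not pass (log2 fold change 0.15, SE 0.07, 95% interval 0.00 to 0.31, limma adjusted p = 0.081). It was called higher without siTAZ replicate 1 (0.0062), without siNT replicate 1 (0.014), without both (7.9e-05) and with total count scaling (0.027). None of the 16 alternatives gave RB1 a negative log2 fold change.

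**Figure D2:**
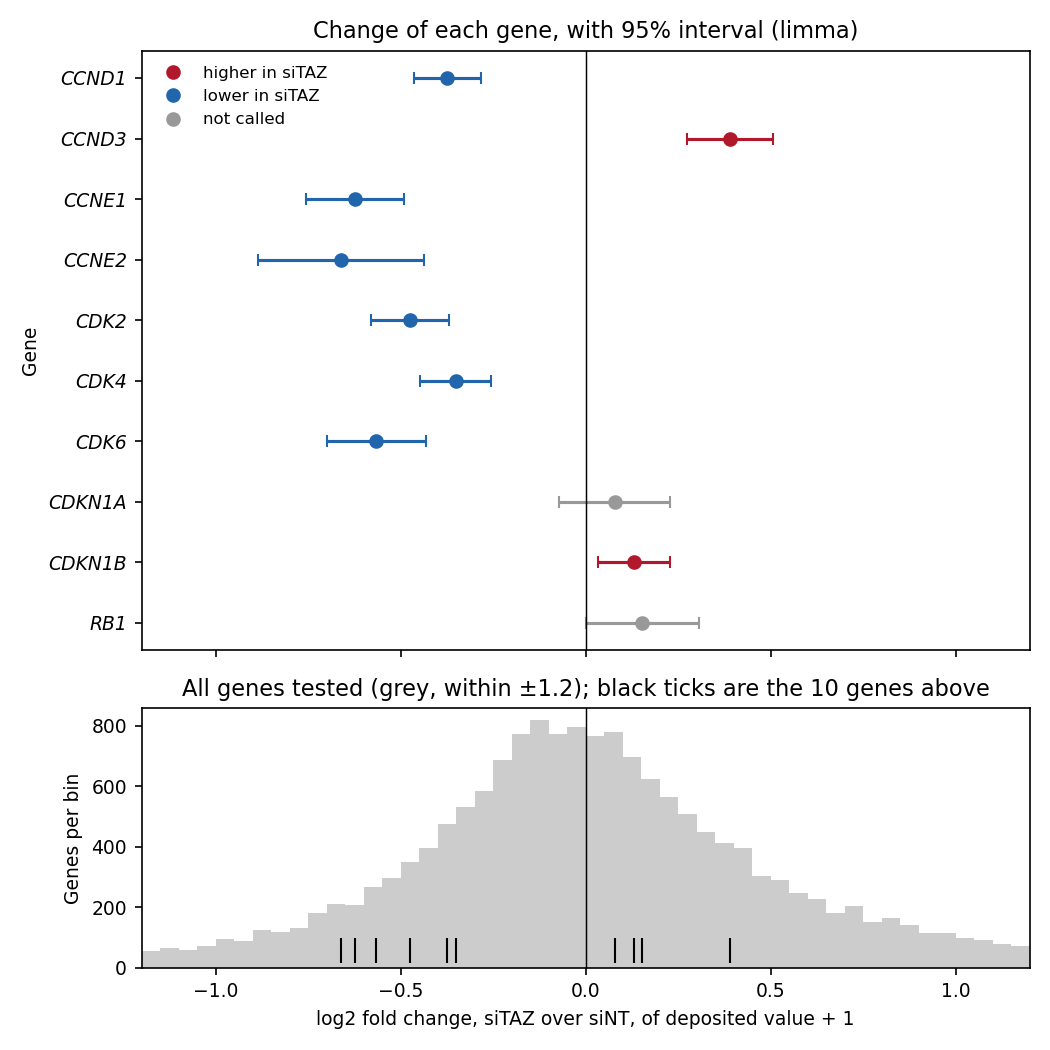
Upper panel: log2 fold change of siTAZ over siNT for each gene with its 95% interval from limma. Lower panel: the number of tested genes per bin of log2 fold change, limited to the plotted range, with black ticks at the 10 genes. The 6 genes called lower sit between -0.66 and -0.35, inside the broad distribution of all genes.

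Set against all tested genes, the changes were of moderate size. The fall of CCNE2 was exceeded in absolute log2 fold change by 22.7% of the 17204 genes, that of CCNE1 by 24.6%, that of CDK6 by 27.8% and that of CDK2 by 34.0%. CCND3, CCND1 and CDK4 were exceeded by 41.6%, 43.3% and 45.6%. At the other end, 72.6% of genes moved further than RB1, 76.7% further than CDKN1B and 85.7% further than CDKN1A. No member reached a 2-fold change. Groups that did not overlap were found for 8 of 10 members and for 61.4% of all genes.

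Levels of different genes were compared as TPM, transcript abundance scaled to the same total in each library, computed from the recovered reads and the length of all annotated exons of a gene. This scaling differs from that of the deposited values and places siTAZ higher against siNT. CDKN1B, for example, was 9.39% higher in deposited values, but had 145 against 125 TPM. TPM is therefore used for the order of genes within a group, and differences between groups were tested on deposited values only. CCND1 stood highest, at 612 ± 4.40 TPM in siTAZ and 746 ± 9.72 TPM in siNT, followed by CDK4 at 244 ± 7.08 TPM in siTAZ and 293 ± 6.64 TPM in siNT, and CDKN1B at 145 ± 2.90 TPM in siTAZ and 125 ± 1.01 TPM in siNT (SD, n = 3 each). CDK2 and CDK6 came next, with 61.9 ± 1.94 and 48.5 ± 5.08 TPM in siTAZ and 80.9 ± 0.85 and 67.3 ± 3.16 TPM in siNT. The order of the middle genes differed between the groups. In siTAZ, CCND3 (46.7 ± 2.45 TPM) and CDKN1A (42.9 ± 3.65 TPM) lay within their spread of each other, and RB1 (31.1 ± 2.77 TPM) was close to CCNE1 (27.6 ± 0.15 TPM). In siNT, CCNE1 (40.1 ± 0.91 TPM) and CDKN1A (38.2 ± 1.96 TPM) were within their spread, followed by CCND3 (33.5 ± 0.64 TPM) and RB1 (26.3 ± 2.48 TPM). CCNE2 was lowest in both groups, at 9.90 ± 1.06 TPM in siTAZ and 14.8 ± 2.47 TPM in siNT.

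The balance of p21 and p27 transcripts to kinase transcripts within a library differed between the groups. Summed CDKN1A and CDKN1B TPM came to 53.2%, 53.4% and 52.3% of the summed CDK2, CDK4 and CDK6 TPM in siTAZ, against 36.7%, 36.6% and 37.4% in siNT. The groups lay far apart relative to their spread. With other inhibitors added, the gap between the groups was wider in percentage points but smaller in proportion to the siNT ratio. Of those added, CDKN2A, whose row also covers ARF, and CDKN2B were abundant and lower. The wider sum took CDKN1A, CDKN1B, CDKN1C and CDKN2A to CDKN2D. It came to 156% ± 1.61 of the kinases in siTAZ and 132% ± 1.61 in siNT (SD, n = 3 each). Summed CCNE1 and CCNE2 came to 57.5%, 64.3% and 60.4% of CDK2 in siTAZ and 71.2%, 64.5% and 68.1% in siNT, so the ratio of E-type cyclins to their kinase was separated by a narrow margin. Summed D-type cyclins were 225% ± 3.51 of summed CDK4 and CDK6 in siTAZ and 216% ± 3.04 in siNT (SD, n = 3 each). These sums were chosen after the values of their parts were seen and were not tested. They are ratios of transcripts and do not measure protein or kinase activity.

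**Figure D3:**
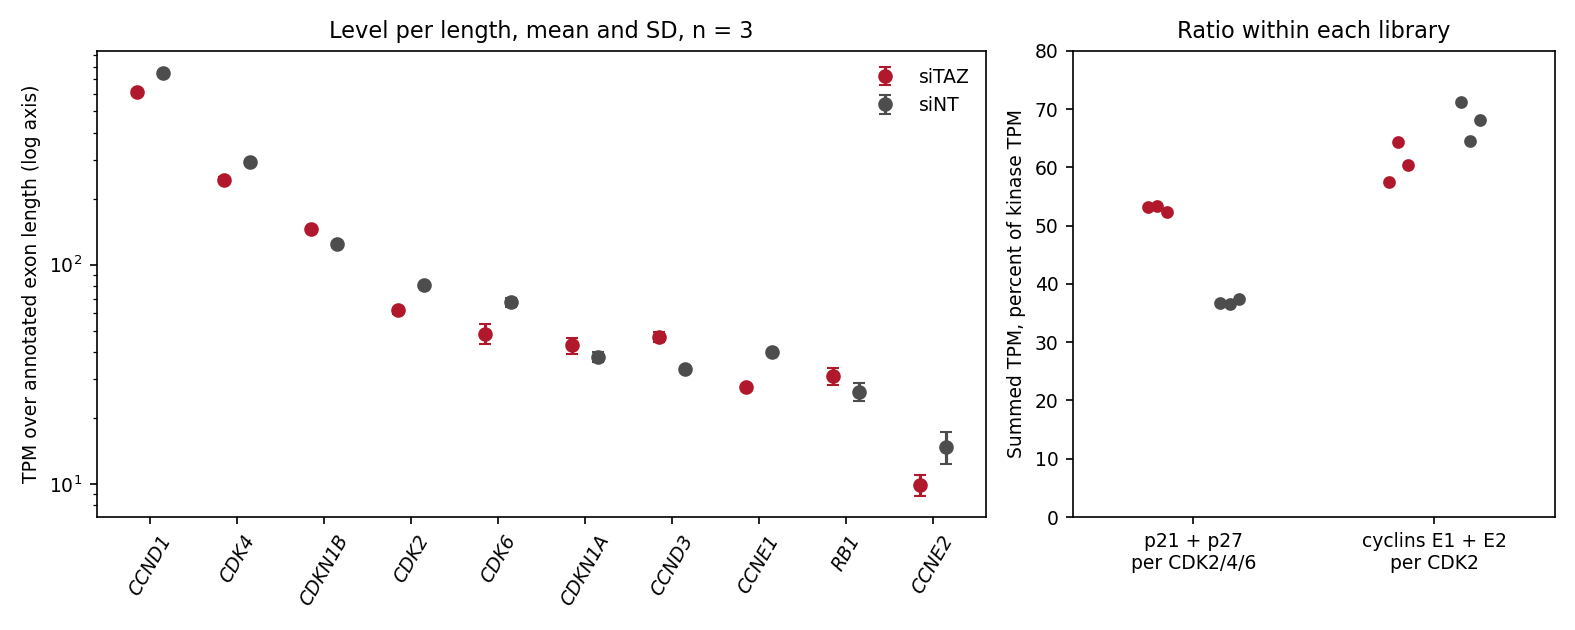
Left: TPM of each gene on a log axis, mean and SD of 3 libraries per group, ordered by level. Right: summed TPM as a percent of kinase TPM in each library. The ratio of p21 and p27 to the kinases was 52.3% to 53.4% in siTAZ and 36.6% to 37.4% in siNT.

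Other genes of the same machinery were read from 7 lists, whose counts stand beside 27.5% lower and 28.3% higher over all genes and a median log2 fold change of 0.00. Among other G1 cyclins, CDKs and CDK activators, 9 of 12 listed genes fell, 1 rose and 2 did not pass (median -0.26). The smallest p-values were those of CCNG2, an atypical cyclin, with 994 ± 67.5 in siTAZ and 1418 ± 39.0 in siNT, CDK7, the kinase that activates other CDKs, with 698 ± 30.1 in siTAZ and 967 ± 46.6 in siNT, and CDK1, the mitotic kinase, with 3637 ± 312 in siTAZ and 5065 ± 537 in siNT. The rise was CCNC, the cyclin partner of CDK8, with 1524 ± 95.5 in siTAZ and 1182 ± 132 in siNT.

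Most of the other CDK inhibitors were lower. Of 6 listed genes, 5 fell, 0 rose and 1 did not pass in limma (median -0.29). CDKN2B, which encodes the CDK4 and CDK6 inhibitor p15, had 3837 ± 89.7 in siTAZ and 5089 ± 36.0 in siNT (log2 fold change -0.41, limma adjusted p = 6.5e-07). CDKN2A, whose row covers both p16 and ARF, had 6096 ± 277 in siTAZ and 6997 ± 307 in siNT (log2 fold change -0.20, limma adjusted p = 0.0025). CDKN2D, which encodes p19 of the same family, had 343 ± 28.8 in siTAZ and 434 ± 31.5 in siNT. The other two called lower were CDKN1C and CDKN2C.

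Downstream of the kinases, 5 of 12 pocket protein, E2F and DP genes fell, 1 rose and 6 did not pass (median -0.15). RBL2, which encodes the pocket protein p130, had 1347 ± 71.3 in siTAZ and 1785 ± 86.1 in siNT, and E2F1, an activating E2F, had 1584 ± 145 in siTAZ and 2076 ± 104 in siNT. The E2F partner genes parted: TFDP1 had 4371 ± 107 in siTAZ and 5003 ± 124 in siNT, while TFDP2 had 981 ± 57.5 in siTAZ and 656 ± 32.8 in siNT. Of 20 E2F target genes of S phase entry, 16 fell, 1 rose and 3 did not pass (median -0.24). RRM2, a subunit of ribonucleotide reductase, had 7063 ± 171 in siTAZ and 13048 ± 542 in siNT (log2 fold change -0.88, limma adjusted p = 8.2e-11). TYMS, thymidylate synthase, had 5721 ± 160 in siTAZ and 8192 ± 47.4 in siNT, and the helicase subunit MCM3 had 6275 ± 150 in siTAZ and 8462 ± 147 in siNT. Another helicase subunit, MCM6, was the rise, at 4219 ± 167 in siTAZ and 3800 ± 31.8 in siNT, and it was not called without siTAZ replicate 3. An E2F target list is known from earlier results of these data to be lower in siTAZ, so its direction is no independent support.

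Of the genes that set the turnover of G1 cyclins and of p21 and p27, 5 of 15 were lower, 5 higher and 5 did not pass (median 0.02). These shares are near those of the 8844 genes in the members' range of values, 35.5% lower and 31.7% higher. Within the ubiquitin ligase that removes p27, CKS1B, its cofactor, had 280 ± 20.6 in siTAZ and 523 ± 33.3 in siNT (log2 fold change -0.90, limma adjusted p = 9.0e-08), whereas SKP2, its substrate receptor, had 2355 ± 86.7 in siTAZ and 1905 ± 44.7 in siNT (log2 fold change 0.31, limma adjusted p = 6.8e-05). The other subunits SKP1, CUL1 and RBX1 were not called, with log2 fold changes of -0.07, 0.02 and 0.17. AMBRA1, a substrate receptor for D-type cyclins, had 2984 ± 119 in siTAZ and 2202 ± 124 in siNT, and FBXO4, an F-box protein gene linked to cyclin D1, had 210 ± 14.95 in siTAZ and 136 ± 12.5 in siNT. Lower were also CDC20, an activator of the anaphase-promoting complex, with 3837 ± 170 in siTAZ and 5770 ± 283 in siNT, and DTL, a receptor that targets p21, with 1585 ± 2.34 in siTAZ and 1833 ± 112 in siNT.

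The last 2 lists concern the transcription of the inhibitors. Of 19 genes made of p53 and its targets other than CDKN1A, 6 rose, 4 fell and 9 did not pass (median 0.07), and MDM2 was among those that did not pass. BTG2, an antiproliferative gene, had 575 ± 43.1 in siTAZ and 208 ± 12.7 in siNT (log2 fold change 1.46, limma adjusted p = 3.1e-10). SESN1 and GADD45A, stress genes, also rose, with 312 ± 30.1 and 825 ± 13.3 in siTAZ and 169 ± 13.6 and 558 ± 30.8 in siNT. TNFRSF10B, a death receptor gene, had 4104 ± 100.1 in siTAZ and 6082 ± 54.7 in siNT, AEN, a nuclease gene, had 2237 ± 173 in siTAZ and 3223 ± 147 in siNT, and PHLDA3, an inhibitor of AKT, had 36.5 ± 7.54 in siTAZ and 88.6 ± 14.9 in siNT. Targets of p53 moved in both directions beside a CDKN1A that was not called. Such a mix is near that of all genes, of which 28.3% were higher and 27.5% lower.

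Of 9 FOXO, SMAD, KLF and ZBTB17 regulators of p21 and p27 transcription, 2 rose, 3 fell and 4 did not pass (median -0.03). FOXO4 had 327 ± 2.96 in siTAZ and 224 ± 30.1 in siNT, and FOXO3 had 1077 ± 46.5 in siTAZ and 902 ± 35.4 in siNT. KLF4 had 1356 ± 81.0 in siTAZ and 2085 ± 49.6 in siNT. The TGF-beta effectors SMAD3 and SMAD4 had 7510 ± 158 and 1070 ± 67.2 in siTAZ and 9645 ± 237 and 1329 ± 36.0 in siNT.

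**Figure D4:**
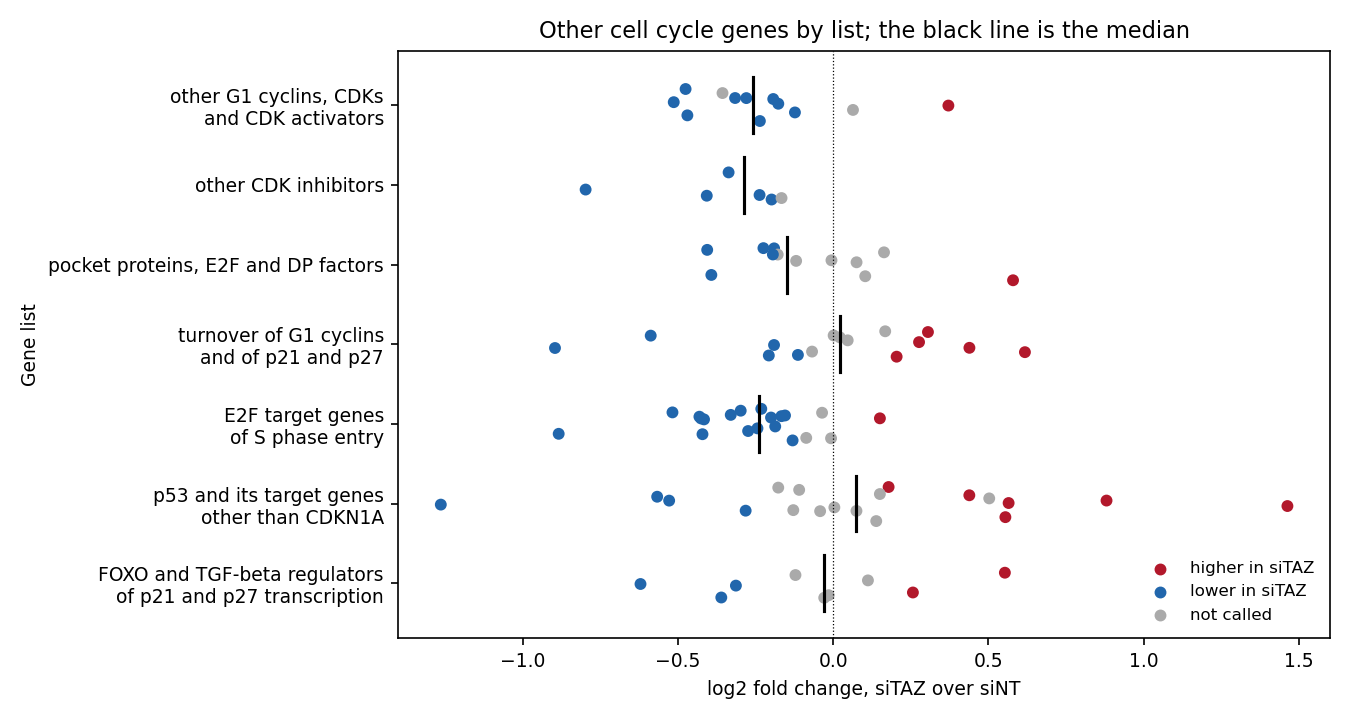
Log2 fold change of siTAZ over siNT for each gene of the 7 lists, colored by the limma call, with the median of each list as a black line. Medians ran from -0.29 for the other CDK inhibitors to 0.07 for p53 and its targets.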

How the data were processed

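Poly(A) RNA of 3 siTAZ and 3 siNT samples of CAOV2 cells was sequenced. The submitters' processing notes name hg19 as the build and HISAT2, HTSeq, FastQC and DESeq2 as tools; versions, annotation, strand setting and gene filter are not stated there. The deposited file gives a signal, reads divided by 1 size factor per library by the authors: 100% of the values were whole multiples of 1 step per library within 0.001 of a read, so whole reads were recovered.

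Symbols came from a table of Ensembl identifiers (16662 of 17211 genes) and GENCODE release 29 (81), which also gave exon lengths for TPM; 468 stayed unnamed. Because the values are normalized, limma 3.58.1 (R 4.3.3) with an intensity trend was fitted to log2(deposited value + 1). Genes had to average 1 or more, which left 17204, and group was the only term, with Benjamini-Hochberg adjustment over all of them. Log2 fold changes are siTAZ over siNT on this scale, which understates changes of low genes. edgeR 4.0.16, DESeq2 1.42.0 and voom on the recovered reads were alternatives, and the methods were tested on simulated data. Within-library ratios of 4 related pairs were compared by an exact permutation test. Reads per member and library ran from 275 to 26846, and the SD within a group was 0.730% to 16.3% of the mean.

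The members and lists were chosen with earlier results of these data known. All 10 members are described; from each list up to 3 called genes per direction with the smallest adjusted p are named, and TSPAN31, LTO1 and INTS8 were chosen for their overlap with members. CDKN1C, CDKN2C, MDM2, SKP1, CUL1, RBX1 and ZBTB17 were named after their values were seen.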

Additional observations from a re-analysis of the deposited data

How the results depend on the processing

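Of the 10 members, CCND1, CCNE1, CCNE2, CDK2, CDK4 and CDK6 stayed called lower and CCND3 called higher under all 16 alternatives (pseudocount, filters, scalings, edgeR, DESeq2, voom, replicate block, each library left out, and replicate 1 of both groups left out, the last chosen after seeing the data). The number of members called was 7 to 9, against 8, and edgeR on the recovered reads called 9630 genes of all, against 9604. Counts of members called higher were 1 to 3 leaving out 1 library each, against 2.

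Same-numbered libraries did not deviate together from their group means: the correlations were -0.14, -0.083 and 0.024. Those of libraries with unlike numbers ran from -0.097 to 0.15. With 3 libraries per group this does not settle whether the samples were paired. With the replicate block, 1 member was called higher, CDKN1B had a log2 fold change of 0.13 (limma adjusted p = 0.12), MCM6 was no longer called, which left 0 E2F targets higher, and 8701 genes were called in all.

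Leaving out 1 library each, CDKN1B had log2 fold changes of 0.12 to 0.14 and RB1 of 0.084 to 0.22; RB1 was called with total count scaling (0.21) and without replicate 1 of both groups (0.28). CDKN1A was -0.042 without replicate 1 of both groups, and CCNE1 over CCNE2 differed by -0.10 to 0.14 leaving out 1 library each. Pocket protein, E2F and DP genes called higher numbered 3 with total count scaling and 3 without replicate 1 of both groups, against 1, and 1 to 2 leaving out 1 library each. Other G1 cyclins, CDKs and activators called higher numbered 2 without replicate 1 of both groups, against 1. E2F targets called higher were 0 to 1 leaving out 1 library each. The cause of these shifts was not tested. Total count scaling moved the median log2 fold change of all genes to 0.05, with 4046 genes called lower and 5561 higher, against 4730 and 4874. Under it 12 E2F targets were lower, against 16, and 7 other G1 cyclins, CDKs and activators, against 9. Without replicate 1 of both groups, 9 genes of the p53 list were higher, against 6.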
